A study of Mus musculus with 6 samples.

Results

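The transcripts of 4 genes, the lysozymes Lyz1 and Lyz2, the acidic chitinase Chia1 and the carbonyl reductase Cbr2, were followed cell by cell in neoplastic cells sorted from mouse lung tumors. They were 4 of the 31055 features of the deposited matrix, taken by their gene symbols, and the set had been selected on measured values of these same cells, so that the levels given here are descriptions without tests. Transcripts of single cells in droplets (10x Chromium) were counted by unique molecular identifiers (UMIs), each of which marks 1 captured transcript near its 3′ end, so that a gene's UMIs do not grow with its length. Of 16017 cells, 12183 had at least 500 genes and at most 20% mitochondrial UMIs, and 8528 of these had at least 500 Sftpc UMIs per 10000 UMIs. Sftpc encodes surfactant protein C, and the 8528 cells are called Sftpc-high.

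All 6 mice carried Lkb1XTR/XTR, the trappable and restorable XTR allele of Lkb1 (gene symbol Stk11), and Rosa26LSL-tdTomato, a red tumor cell label, and their tumors had grown for 20 weeks before 2 weeks of treatment. The 3 restored mice carried the FLPo-ERT2 recombinase and received tamoxifen. Of the 3 non-restored mice, 1 received tamoxifen and 1 vehicle without the recombinase, and 1 carried the recombinase and received vehicle. Cells were depleted of CD45, CD31, F4/80 and Ter119 by sorting. In the trapped state the Lkb1 transcript ends in a GFP sequence, and deletion of the trap restores it.

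The matrix pools all libraries, and the mouse behind each cell is not given in the files used here, so it counts as 1 sample without replicates and no difference was tested between mice. GFP-positive cells (a GFP UMI and no Stk11 UMI) and Stk11-positive cells (the reverse) are classes of cells, not restored or non-restored mice. Levels are given as CPM: the UMIs of all cells of a class were added, and those of the gene were scaled to a total of 1000000. Intervals are exact 95% Poisson, conditional binomial or Clopper-Pearson intervals and cover counting error only, not differences between mice. A count of 0 is given with the level that 3 counts would have.

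Lysozymes cleave the peptidoglycan of bacterial cell walls. In mice, Lyz2 is the form of macrophages and also of alveolar type II (ATII) cells, whereas Lyz1 is best known from Paneth cells of the small intestine. Chia1 is a secreted enzyme that degrades chitin in lung and stomach. Cbr2 is a carbonyl reductase abundant in mouse lung, and it is also a known marker of club cells.

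Lyz1 and Lyz2 are tandem genes on chromosome 10, each with 4 exons on the minus strand (GRCm38, GENCODE M21). Lyz1 (ENSMUSG00000069515) spans chr10:117287797-117292868 and Lyz2 (ENSMUSG00000069516) chr10:117277331-117282321, with 5475 bp between them. Chia1 (ENSMUSG00000062778, 11 exons) lies at chr3:106113229-106132120 on the plus strand and Cbr2 (ENSMUSG00000025150, 8 exons) at chr11:120729489-120732114 on the minus strand. None of the 4 overlaps another annotated gene. The 250 bases before the RefSeq start of both lysozyme genes are shown because the pair shares most of this sequence. The transcripts were nevertheless spread very differently over single cells. For Lyz2 the RefSeq start lies inside the GENCODE gene given above, so the end of its window overlaps that gene. Capitals mark bases without an identical partner in the alignment of the pair (RefSeq, GRCm38.p6, minus strand, chr10:117292869-117293118 for Lyz1 and chr10:117282273-117282522 for Lyz2).
Lyz1: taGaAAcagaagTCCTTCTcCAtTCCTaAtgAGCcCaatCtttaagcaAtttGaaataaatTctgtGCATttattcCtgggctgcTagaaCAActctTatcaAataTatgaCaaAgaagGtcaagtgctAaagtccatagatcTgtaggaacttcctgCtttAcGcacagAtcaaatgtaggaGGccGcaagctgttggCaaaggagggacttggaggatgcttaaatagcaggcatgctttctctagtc
Lyz2: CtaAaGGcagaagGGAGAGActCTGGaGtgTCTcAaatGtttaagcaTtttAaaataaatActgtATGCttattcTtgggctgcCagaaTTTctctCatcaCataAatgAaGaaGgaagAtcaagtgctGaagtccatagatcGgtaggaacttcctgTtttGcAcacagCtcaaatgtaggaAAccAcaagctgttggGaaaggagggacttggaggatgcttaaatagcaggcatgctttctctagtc
Of 248 aligned pairs, 200 (80.6%) were identical. The unmatched bases lay mostly far from the start, 40 of them in the first 120 bases and 10 in the last 130. The NKX2-1 core CAAGNG, searched on both strands of the windows from 250 bases before to 50 after the start, began 129 bases before the start in both genes and also had a match in Chia1 and Cbr2, and 46.0% of 27025 promoters hold it. The C/EBP motif TTGCNNAA was found on the minus strand of the Lyz1 window, 209 bases before the start, where Lyz2 has no match, and 10.8% of all promoters hold it. These matches are letters in a window and not measured sites.

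The transcripts of the pair were 96.0% identical over 1262 aligned bases and 97.4% identical over the last 500 bases, where 3′ reads fall. Only uniquely mapped reads were counted. Of 411 stretches of 90 bases in that end of the Lyz1 transcript, 15 (3.65%) also occurred in Lyz2, so most reads could be told apart by 1 or more bases. A sequencing error at such a base was not modelled, and low Lyz1 counts in cells with much Lyz2 are uncertain for that reason.

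The Sftpc-high cells were checked on ATII markers other than Sftpc, which chose them. All 11 were higher there than in the other kept cells, with a summed level of 49120 against 11613 CPM, and no ATI or transitional marker was. Their median depth was 21376 UMIs. Myeloid markers, which matter here because macrophages are rich in Lyz2, summed to 8.21 CPM over 12 genes, against 10209 CPM in 71 myeloid-marker cells. Of the Sftpc-high cells, 2216 were GFP-positive and 2811 Stk11-positive, 19 had both transcripts and 3482 neither, and the median depths of the first 2 classes were close (25361 and 24623 UMIs).

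Lyz2 was the broadly and strongly detected lysozyme of Sftpc-high cells. Its level was 11962 CPM (11947 to 11978), and 93.2% of the cells had at least 1 UMI, or 85.7% after each cell was thinned to 5000 UMIs. Across single cells it ran from 0.619 UMIs per 10000 at the 10th percentile over a median of 75.5 to 261 at the 90th. The distribution was broad. Of the 8528 cells, 1121 (13.1%) had under 1 and 2495 (29.3%) had 150 or more Lyz2 UMIs per 10000.

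Lyz1 had the opposite shape. Of the Sftpc-high cells, 7881 had no Lyz1 UMI, 502 had 1, 53 had 2 and 32 had 3 to 9, whereas 60 cells (0.704%) had 10 or more and 41 had 50 or more. These 60 cells, called Lyz1-rich, held 10693 of the 11443 Lyz1 UMIs (93.4%), with 13 to 699 UMIs each and a median of 106. A level of 58.6 CPM over all Sftpc-high cells therefore described almost none of them.

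The same contrast appears when cells are ranked by their UMIs of a gene. The top 1% of Sftpc-high cells (85 cells) held 94.5% of the Lyz1 UMIs, 22.5% of the Chia1 UMIs, 9.61% of the Cbr2 UMIs and 7.04% of the Lyz2 UMIs. Sftpc, which chose the cells, had 3.48% there. The cells needed to reach 50% of a gene's UMIs numbered 13 for Lyz1, 348 for Chia1, 920 for Cbr2 and 1163 for Lyz2.

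**Figure D1:**
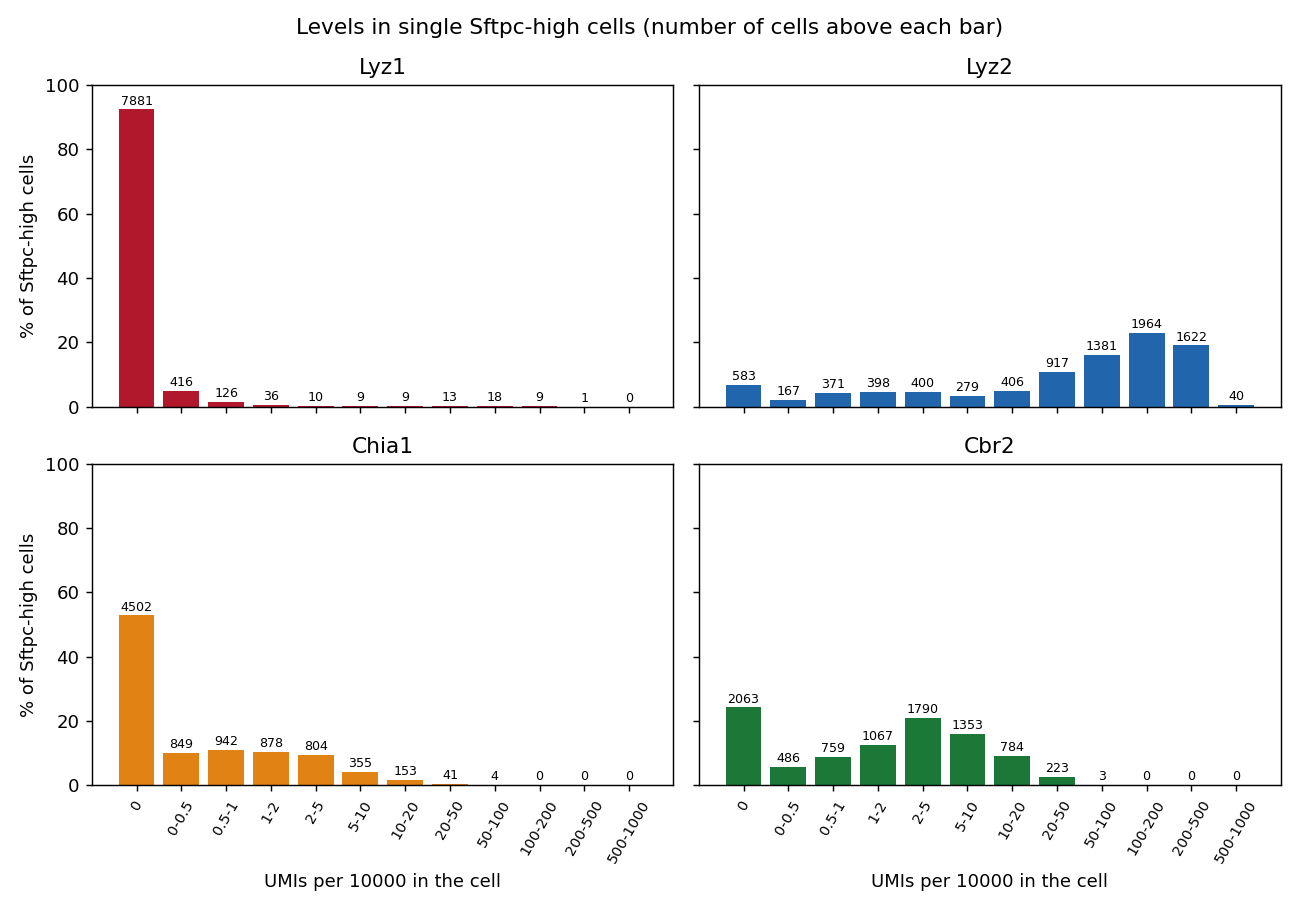
Levels of the 4 genes in the 8528 Sftpc-high cells. The horizontal axis gives UMIs per 10000 in a cell, in unequal bins whose first holds cells without a UMI, and the vertical axis the percent of cells, with cell numbers above the bars. Lyz2 has its highest bar at 100 to 200 (1964 cells), whereas 7881 cells have no Lyz1.

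**Figure D2:**
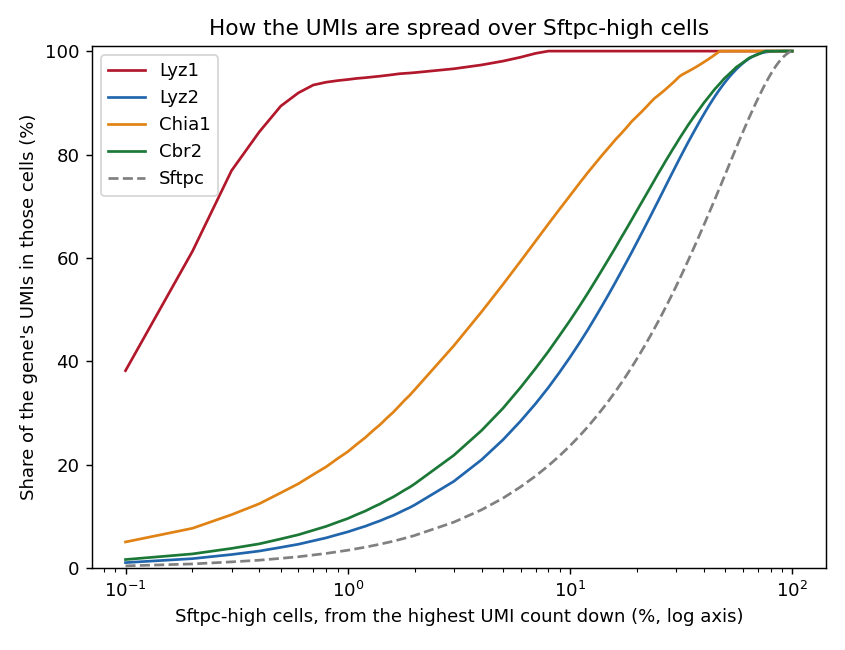
Share of a gene's UMIs (vertical axis, %) held by the Sftpc-high cells with the most UMIs of it (horizontal axis, % of cells on a log axis). The Lyz1 line reaches 94.5% at the top 1% of cells, against 22.5% for Chia1, 9.61% for Cbr2, 7.04% for Lyz2 and 3.48% for Sftpc.

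In most Lyz1-rich cells Lyz2 was still the more abundant lysozyme. Lyz1 was at 5539 CPM there and at 3.88 CPM in the other 8468 Sftpc-high cells. In single Lyz1-rich cells, Lyz1 made up 2.27% to 99.6% of the UMIs of both lysozymes, with a median of 32.6%, and it exceeded Lyz2 in 8 of the 60. Lyz2 itself was at 12932 CPM in these cells and 11953 CPM in the others, a ratio of 1.08 (1.07 to 1.10) over the pooled cells. Single cells varied widely, from 1.78 to 389 Lyz2 UMIs per 10000 with a median of 115, and 8 of the 60 had under 50, against 41.5% of the other Sftpc-high cells. Chia1 was at 190 against 146 CPM, a ratio of 1.30 (1.17 to 1.44). Cbr2 was near its level elsewhere, at 396 against 393 CPM, a ratio of 1.01 (0.938 to 1.08).

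None of the Lyz1-rich cells was Hopx-high or keratin-high. The 12 myeloid markers summed to 26 UMIs in them, or 13.5 CPM (8.80 to 19.7), above the 8.16 CPM (7.76 to 8.57) of the other Sftpc-high cells and far below the 10209 CPM of myeloid-marker cells. No cell held more than 3 of these UMIs, and Tyrobp, Mrc1, Marco, Itgax, C1qa, C1qb and C1qc were at 0. They were deeper than the others, with a median of 31907 against 21331 UMIs, and the part of depth was not tested. A GFP UMI was present in 17 of them (28.3%, 17.5% to 41.4%) and a Stk11 UMI in 25 (41.7%, 29.1% to 55.1%), and the shares over all Sftpc-high cells, 26.2% and 33.2%, lay inside these intervals. Other genes with high ratios in these cells were chosen after their values were seen. The 83 Ccl20 UMIs were all in 3 cells. Slc26a4, an anion exchanger, was at 120 against 23.5 CPM with a UMI in 45 of the 60 cells.

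Outside the Lyz1-rich cells a trace of Lyz1 was left. In the Sftpc-high cells left, there were 3.24 Lyz1 UMIs per 10000 Lyz2 UMIs (3.02 to 3.48), and the 71 myeloid-marker cells, with 31014 CPM of Lyz2, had 2.82 (1.58 to 4.66). The ratio was not the same in every class: it was 4.46 (3.88 to 5.10) in GFP-positive and 2.93 (2.62 to 3.27) in Stk11-positive cells, and 19.2 (12.9 to 27.4) in keratin-high cells, from 30 Lyz1 UMIs. When these Sftpc-high cells were divided by their Lyz2 level, Lyz1 was 0.718 CPM (0.410 to 1.17) below 1 Lyz2 UMI per 10000, 3.73 CPM (3.24 to 4.27) from 50 to 150 and 6.47 CPM (5.87 to 7.11) at 150 or more. The trace was thus higher in each step named, but over the same steps Lyz2 differed far more, from 34.1 to 25385 CPM. The source of this trace was not tested.

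Chia1 lay between the lysozymes in its spread. Its level was 146 CPM (144 to 148), and 47.2% of Sftpc-high cells had a UMI, or 25.9% (24.99% to 26.9%) after thinning. The median cell had none, the 90th percentile was 3.41 and the highest cell 74.4 UMIs per 10000. In 127 endothelial-marker cells, which should lack it, no Chia1 UMI was counted, where 3 counts would be 1.85 CPM. In 240 fibroblast-marker cells the thinned share was 0.546%, at median depths of 14906 UMIs there and 21376 in Sftpc-high cells.

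The 198 Sftpc-high cells with 10 or more Chia1 UMIs per 10000 also differed in other transcripts. Their Lyz2 was 16257 CPM against 11831 CPM in the other cells, a ratio of 1.37 (1.37 to 1.38). GFP was 5.68 against 23.2 CPM, which made it the gene with the 4th lowest ratio of 7606 genes at 10 CPM or more, and Retnla, a secreted resistin-like protein, was at 3115 against 1157 CPM. Lyz1 was 14.8 against 59.9 CPM, but 1 of the 198 and 59 of the other cells were Lyz1-rich, and without these the order reversed, at 7.09 CPM (5.09 to 9.62) against 3.78 CPM (3.50 to 4.07). The threshold of 10 per 10000 was set, and GFP and Retnla were chosen, after the values were seen.

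Cbr2 was detected in most Sftpc-high cells at a low level. It stood at 393 CPM (390 to 396), with a UMI in 75.8% of cells, or 56.5% after thinning, and a median of 1.88 and 90th percentile of 11.1 UMIs per 10000. The thinned shares were 1.25% in endothelial-marker and 1.09% in fibroblast-marker cells, where the levels were 5.54 and 8.04 CPM. For Lyz2 these shares were higher, 20.0% and 32.2%, at levels of 72.7 and 86.4 CPM. These cells should lack Lyz2, so a Lyz2 share at or below theirs is not read as expression, and the source of their Lyz2 UMIs was not tested.

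Detection of the 4 genes overlapped in Sftpc-high cells, most often as Lyz2 with Cbr2. After thinning to 5000 UMIs (8237 cells, with 291 shallower cells left out), 624 cells (7.58%) had none of the 4, 2607 (31.6%) had 1, 3619 (43.9%) had 2, 1336 (16.2%) had 3 and 51 (0.619%, 0.461% to 0.813%) had all 4. Without thinning, 4.19% of the cells had all 4. Lyz2 and Cbr2 were both present in 51.0% of cells, Lyz2 and Chia1 in 23.7%, and Chia1 and Cbr2 in 16.6%. The products of the single shares were 48.5%, 22.2% and 14.7%, so these overlaps were 1.05, 1.07 and 1.13 times the products. For all 4 members the product was 0.313%, and the observed share was 1.98 times that.

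A cell with 1 of these transcripts more often had another. Cbr2 was detected in 59.5% of cells with Lyz2 and 38.8% of those without, and Chia1 in 27.7% against 15.4%. Cbr2 was in 64.1% of cells with Chia1 and 53.9% of those without. Lyz1 was detected in 2.81% of cells with Lyz2 and 0.594% of those without. Only 205 cells had Lyz1 here, and low Lyz1 counts in cells with much Lyz2 are uncertain, as said above. The unthinned levels went the same way: from under 1 to 150 or more Lyz2 UMIs per 10000, Chia1 went from 69.4 to 196 CPM and Cbr2 from 245 to 476 CPM. The median depth also went up over these steps, from 19026 to 25660 UMIs, as did Sftpc, from 116132 to 174370 CPM, and their part in the detection was not tested.

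**Figure D3:**
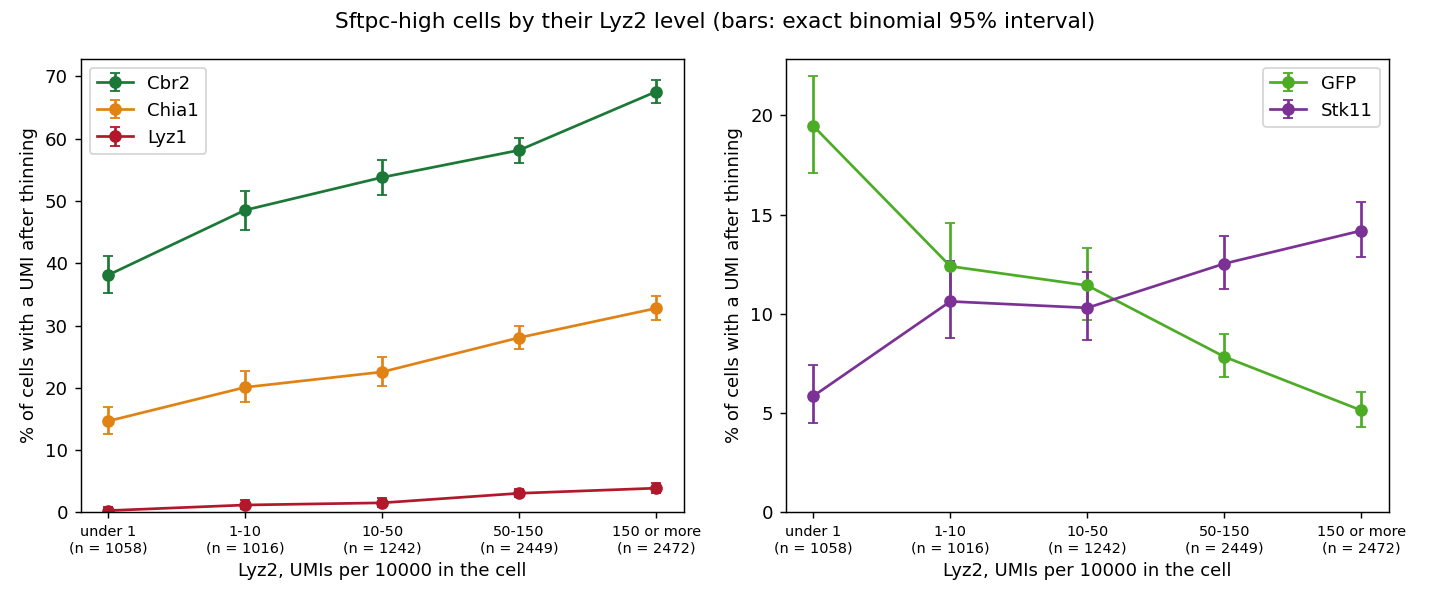
Percent of Sftpc-high cells with a UMI after thinning to 5000 UMIs (vertical axes) in 5 steps of the cell's own Lyz2 level (horizontal axes, UMIs per 10000). Bars are exact binomial 95% intervals. From the lowest to the highest step Cbr2 goes from 38.1% to 67.6%, Chia1 from 14.7% to 32.8% and Stk11 from 5.86% to 14.2%, while GFP goes from 19.5% to 5.14%.

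As a description of likeness, Pearson correlations of log(1 + UMI) were taken over the 8237 thinned cells, which share libraries and depth. Lyz2 was most like Cxcl15 (r = 0.687), Lcn2 (0.627) and Chil1 (0.624), 3 secreted products of ATII cells, out of 5146 genes. Cbr2 was most like Scd1 (0.280), Selenbp1 (0.252) and Nupr1 (0.242), and Chia1 was most like Sftpa1 (0.226), Sftpd (0.194) and Ctsc (0.177). The members were weakly related to each other, with 0.171 for Lyz2 and Cbr2, 0.150 for Lyz2 and Chia1, 0.082 for Chia1 and Cbr2 and 0.0587 for Lyz1 and Lyz2. For Lyz1 no value passed that with Fabp5 (0.105), followed by Acoxl (0.0766) and Dlk1 (0.0727), and such low values in sparse counts are no finding.

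Among Sftpc-high cells, the Stk11-positive cells had more Lyz2, Chia1 and Cbr2 than the GFP-positive cells. Cbr2 was 519 CPM (514 to 524) against 205 CPM (201 to 209), a ratio of 2.53 (2.48 to 2.59). Chia1 was 201 CPM (198 to 205) against 87.0 CPM (84.6 to 89.4), a ratio of 2.32 (2.24 to 2.39). Lyz2 was 15166 against 8108 CPM, a ratio of 1.87 (1.86 to 1.88). Lyz1 was 60.6 against 55.7 CPM, a ratio of 1.09 (1.04 to 1.14) whose direction was not stable: its log2 value of 0.12 became -0.22 with Sftpc of at least 1000 per 10000 and -0.12 with at least 2 UMIs of Stk11 or GFP, but 0.49 without the 6% of cells with the most UMIs and 1.42 without the 10 cells of each class with the most Lyz1. In each class 10 cells held most Lyz1 UMIs, 68.4% and 87.1%.

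Across the 7804 genes with at least 10 CPM in either class, 0.577% were at least 2-fold higher in Stk11-positive cells and 2.19% at least 2-fold lower. Of the 4 members 2, Cbr2 and Chia1, were at least 2-fold higher and none was lower, and since the set was selected on these cells nothing is read from that count. The median gene had a log2 ratio of -0.19, and relative to it the log2 ratios were 1.53 for Cbr2, 1.40 for Chia1, 1.09 for Lyz2 and 0.31 for Lyz1. Cells with neither transcript, which were shallower (15848 UMIs), lay between the classes for Lyz2 (11894 CPM) and Chia1 (138 CPM) and also for Cbr2 (427 CPM).

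The difference in Lyz2 ran through the whole distribution. The median Stk11-positive cell had 122 Lyz2 UMIs per 10000 and the median GFP-positive cell 35.6. Under 1 per 10000 were 6.23% of the Stk11-positive and 22.6% of the GFP-positive cells, and 150 or more had 41.4% and 18.2%. The distributions overlapped widely, with 2.09 and 0 at the 10th and 301 and 210 at the 90th percentile. For Cbr2 the medians were 3.36 and 0.729 UMIs per 10000.

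**Figure D4:**
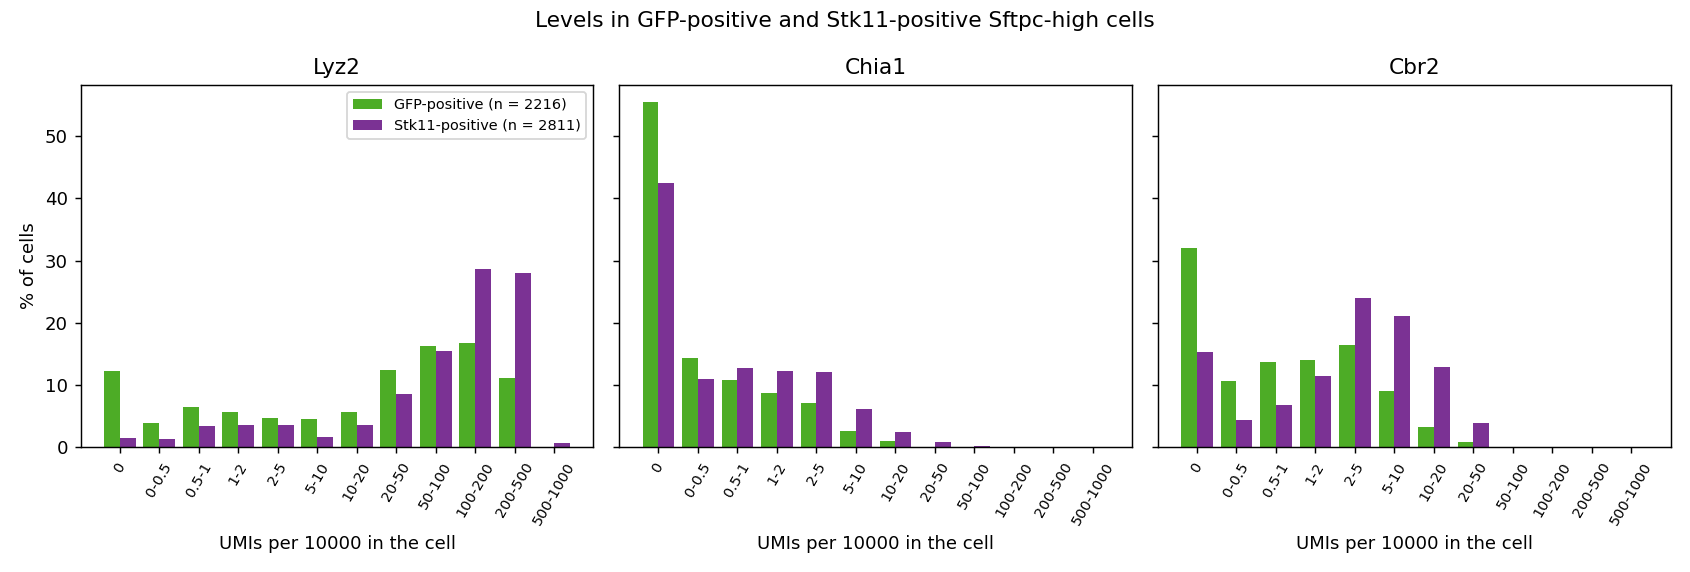
Levels of Lyz2, Chia1 and Cbr2 in the 2216 GFP-positive and 2811 Stk11-positive Sftpc-high cells. The horizontal axes give UMIs per 10000 in a cell, in bins whose first holds cells without a UMI, and the vertical axis the percent of cells of the class. The Stk11-positive cells have the taller bars at high levels of each gene, and the classes overlap in every gene.

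Detection followed the levels. After thinning, a Chia1 UMI was found in 33.0% (31.3% to 34.8%) of Stk11-positive and 19.8% (18.1% to 21.5%) of GFP-positive cells, and a Cbr2 UMI in 66.4% (64.6% to 68.2%) and 41.7% (39.7% to 43.8%). Unthinned, these shares were 57.6% and 44.5% for Chia1 and 84.6% and 68.1% for Cbr2. Lyz2, Chia1 and Cbr2 were detected together in 22.7% (21.1% to 24.3%) of Stk11-positive and 7.69% (6.61% to 8.89%) of GFP-positive cells after thinning. The products of the single shares were 20.3% and 6.25%, and the observed shares were 1.12 and 1.23 times these. The gap between the classes was thus mostly that of the single shares. All 4 members were detected in 1.04% (0.700% to 1.495%) and 0.455% (0.218% to 0.835%), whose intervals overlap, and none of the 4 in 3.09% and 14.1%.

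Cbr2 also marks club cells in healthy lung. The 8 other club markers summed to 234 CPM in Stk11-positive and 65.2 CPM in GFP-positive cells, most of it from Scgb1a1 (166 against 19.5 CPM), which had 58.4% of its UMIs in 3 Stk11-positive cells. Without Scgb1a1 the other 7 summed to 67.8 against 45.7 CPM, and 5 of the 8 were higher in Stk11-positive cells. Without the 20.8% of Sftpc-high cells that had 3 or more UMIs of Scgb1a1, Scgb3a2 and Cyp2f2 the log2 ratio of Cbr2 was 1.36, against 1.34 with them. The myeloid markers summed to 7.38 CPM in Stk11-positive cells, with C1qa and C1qc at 0, and to 8.93 CPM in GFP-positive cells, with C1qa at 0.

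The 12 ATII markers set the scale for these ratios. None was 2-fold apart between the classes: their log2 ratios ran from -0.29 (Sftpd) to 0.67 (Cxcl15) with a median of 0.21, and Sftpc, which chose the cells, was at 0.37. Lyz2 (0.90), Chia1 (1.21) and Cbr2 (1.34) each lay above all 12, and Lyz1 (0.12) lay among them. Hc, which the study also names as an ATII marker and which is not among the 12, was at 1.41, above every member. In the lysozyme c family of 8 genes, no gene beside Lyz1 and Lyz2 reached 10 CPM. Of the 8 chitinase family genes, 4 did, and besides Chia1 their log2 ratios were 0.32 for Chil1, -0.004 for Chid1 and -0.39 for Ctbs. Chil3, a chitinase-like protein without enzyme activity, was below 10 CPM (3.59 against 9.43 CPM), and 3 cells held 80.4% and 92.4% of its UMIs in the 2 classes. All 5 carbonyl reductases reached 10 CPM, and Cbr1, Cbr3, Cbr4 and Dcxr lay between -0.11 and 0.28, so Cbr2 stood apart from its relatives.

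Of the 20 secreted host defence genes 14 reached 10 CPM. Hc, which encodes complement C5, was 2.65 times higher in Stk11-positive cells (526 against 199 CPM) and Scgb1a1 8.53 times. The protease inhibitor gene Slpi was 3.83 times higher in GFP-positive cells (632 against 165 CPM) and Lgals3, which encodes galectin-3, 2.18 times. The median log2 ratio of the 14 was 0.05.

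All 4 members were lower in Hopx-high cells, which had at least 15 UMIs per 10000 of the ATI marker Hopx, than in Sftpc-high cells below both thresholds. The 1083 Hopx-high cells had all 7 ATI markers other than Hopx above the other kept cells, with a summed level of 10503 against 2648 CPM, and 280 of them were also Sftpc-high. Lyz2 was 703 CPM (690 to 717) against 12433 CPM in the 8104 reference cells, 17.7-fold lower. Lyz1 was 0.452 CPM (7 UMIs) against 61.4 CPM, a log2 ratio of -7.09 that became -3.15 without the Lyz1-rich cells. Chia1 was 27.6 CPM (25.03 to 30.3) against 147 CPM, 5.34-fold lower, and Cbr2 was 120 CPM (115 to 126) against 402 CPM, 3.35-fold lower.

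The remaining Lyz2 of Hopx-high cells sat with Sftpc. In the 280 cells that were also Sftpc-high, Lyz2 was 1795 CPM, Chia1 64.2 CPM and Cbr2 247 CPM. In the 803 with Sftpc under 500 per 10000, these were 158 CPM, 9.30 CPM and 57.2 CPM. The thinned Lyz2 share of the latter, 37.9% (34.2% to 41.6%), was above that of endothelial-marker cells given earlier. It overlapped that of fibroblast-marker cells, 32.2% (25.5% to 39.5%), and these shares are not read as different. Median depths were 10829 and 14906 UMIs. Unthinned, the shares were 60.4% and 60.0%. The level was higher, at 158 CPM (150.4 to 166) against 86.4 CPM (77.4 to 96.2), with 43.2% of its UMIs in 10 cells. Cbr2 was higher than in fibroblast-marker cells both by level (57.2 against 8.04 CPM) and by thinned share (12.8% against 1.09%), with 21.5% and 3.75% unthinned.

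All 4 members were also lower in keratin-high cells, which had at least 50 UMIs per 10000 of Krt8 and Krt18, the keratins of a transitional state between ATII and ATI cells. The 5 transitional markers other than these keratins were all above the other kept cells in these 1183 cells, with a summed level of 5601 against 713 CPM. Lyz2 was 510 CPM (502 to 518), 24.4-fold below the reference cells, and Lyz1 0.978 CPM (0.660 to 1.40), with a log2 ratio of -5.97. This value depended on few cells: it was -2.04 without the Lyz1-rich cells and -1.76 with a keratin threshold of 30 per 10000. Cbr2 was 34.5 CPM (32.4 to 36.6), 11.7-fold lower, and Chia1 51.0 CPM (48.5 to 53.6), 2.89-fold lower. The order of Chia1 and Cbr2 thus differed between the states: Chia1 was further below the reference in Hopx-high cells and Cbr2 in keratin-high cells. The log2 ratios had intervals of -2.56 to -2.28 for Chia1 and -1.81 to -1.68 for Cbr2 in Hopx-high cells, and of -1.60 to -1.46 for Chia1 and -3.63 to -3.46 for Cbr2 in keratin-high cells.

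Most of the Lyz2, Chia1 and Cbr2 UMIs of keratin-high cells lay in the 165 cells that were also Sftpc-high, but only 5 of the 30 Lyz1 UMIs did. There Lyz2 was 3064 CPM, Cbr2 133 CPM and Chia1 183 CPM (171 to 196), above the 147 CPM of Chia1 in the reference cells. In the 1018 cells with Sftpc under 500, Lyz2 was 77.0 CPM (73.7 to 80.4), within the interval of endothelial-marker cells (60.1 to 87.0 CPM), and its thinned share was 23.7%, against 32.2% in fibroblast-marker cells, with 62.2% and 60.0% unthinned. Chia1 was 28.7 CPM and Cbr2 17.7 CPM there. A single one of these 1018 cells held 312 of their 752 Chia1 UMIs, and without it Chia1 was 16.8 CPM (15.3 to 18.4), while Cbr2 without its own highest cell was 16.6 CPM (15.1 to 18.2).

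**Figure D5:**
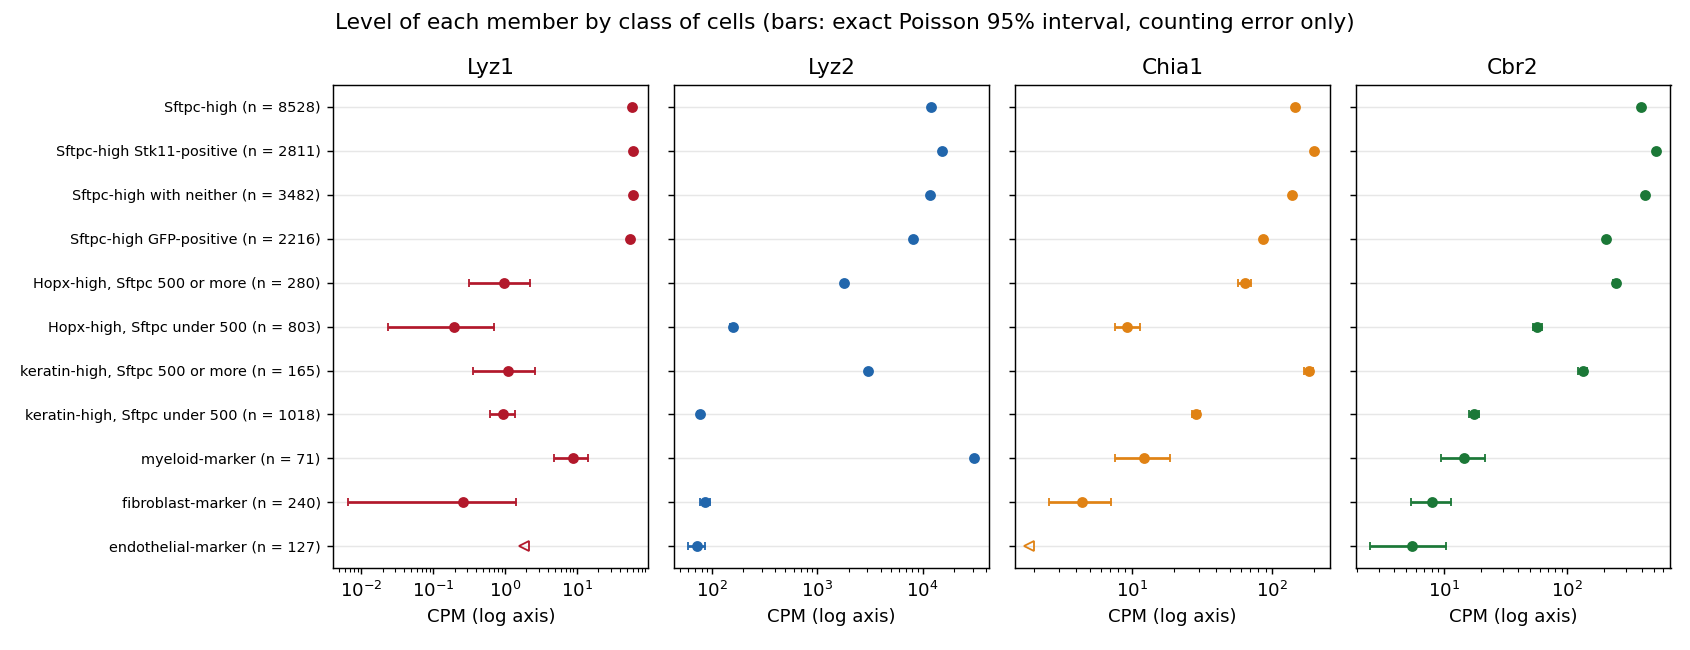
Level of each gene (horizontal axes, CPM on log axes) in classes of cells, with cell numbers. Bars are exact Poisson 95% intervals, mostly narrower than the points, and an open triangle marks the level of 3 counts where no UMI was counted. In each of Lyz2, Chia1 and Cbr2 the cells with Sftpc under 500 per 10000 lie below the Hopx-high or keratin-high cells with Sftpc of 500 or more, and Lyz2 is highest in myeloid-marker cells.

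Against this, 5.2% of 8309 genes were at least 2-fold lower and 10.8% at least 2-fold higher in Hopx-high cells, and 4.97% and 13.2% of 8358 genes in keratin-high cells. All 4 members were at least 2-fold lower in both comparisons, which share their reference cells and were known when the set was chosen. The median gene had a log2 ratio of 0.37 in each. Of the 12 ATII markers 11 were at least 2-fold lower in each comparison, Sftpc among them by choice of the cells, with medians of -1.79 and -2.43. Lyz2, with log2 ratios of -4.14 and -4.61, lay below all 12 in both, the lowest being Cxcl15 at -3.55 and -4.09.

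The related genes did not all go the same way. Chil1, a chitinase-like protein of ATII cells, was 13.3-fold lower in Hopx-high and 9.34-fold lower in keratin-high cells, whereas the lysosomal chitobiase Ctbs was 2.19 times higher in keratin-high cells. Among carbonyl reductases, Dcxr was 2.04-fold lower in keratin-high cells, and Cbr1, Cbr3 and Cbr4 lay within 2-fold in both comparisons. Chil4 was 9.10 CPM in keratin-high and 0.0645 CPM in reference cells, but 256 of its 279 UMIs were in 1 cell. Of the 14 secreted host defence genes, 11 were at least 2-fold lower in each comparison and Lgals3 was higher in both, 3.67 times in Hopx-high and 9.05 times in keratin-high cells. Lcn2, which sequesters bacterial siderophores, was 19.9-fold and 21.1-fold lower and Lrg1 24.4-fold and 19.2-fold lower.

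Within the Hopx-high class, Lyz2 also differed by the Lkb1 transcript. It was 1482 CPM (1448 to 1517) in 289 Stk11-positive and 244 CPM (231 to 257) in 294 GFP-positive Hopx-high cells, though 10 cells held 65.5% and 84.4% of its UMIs. After thinning, 50.7% (44.7% to 56.7%) and 22.6% (17.9% to 27.8%) of these cells had a Lyz2 UMI, and 79.2% and 46.6% unthinned, at median depths of 14066 and 16604 UMIs. The share of the GFP-positive cells was below that of fibroblast-marker cells (32.2%) and is not read as expression. Cbr2 was 213 CPM (200.4 to 227) against 53.0 CPM (47.1 to 59.4). Both genes were higher in the Hopx-high cells that were also Sftpc-high. How many such cells each transcript class held was not counted, and the part of Sftpc in these differences was not tested. Keratin-high cells comprised 165 Stk11-positive and 642 GFP-positive cells. Their levels were 38.1 CPM (32.7 to 44.2) and 33.6 CPM (31.1 to 36.3) for Cbr2, with overlapping intervals. For Chia1 they were 40.1 CPM (34.5 to 46.3) and 37.8 CPM (35.1 to 40.6), which also overlapped. For Lyz2 they were 514 CPM (493 to 535) and 474 CPM (465 to 484), whose intervals did not overlap. For Lyz2, 10 cells held 84.7% and 53.0% of the UMIs, and 38.0% (30.6% to 46.0%) and 24.6% (21.3% to 28.2%) of the cells had a Lyz2 UMI after thinning, or 87.3% and 62.9% unthinned, at median depths of 24569 and 28318 UMIs. The thinned shares did not overlap each other, but each overlapped that of fibroblast-marker cells, 32.2% (25.5% to 39.5%). No difference in expression is read from them, nor from Lyz2 levels that rested on so few cells.

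The thresholds cut continuous distributions. The lowest Sftpc-high cell had 500.07 and the highest cell outside 499.95 Sftpc UMIs per 10000, and the values were 15.01 and 14.98 for Hopx and 50 and 49.99 for Krt8 and Krt18. The classes of cells can hold different shares of each mouse, and class and mouse cannot be told apart here.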

How the data were processed

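Single-cell RNA-seq libraries (10x Chromium 3′) were made from sorted neoplastic cells of 6 mice. According to the labels and the methods of the study, the authors counted uniquely mapped reads per gene and cell with Cell Ranger 3.0.2 on mm10. The deposited values are raw counts of UMIs, with all libraries in 1 matrix of 31055 features and 16017 cells, a total of 266713311 UMIs and a median of 13985 per cell. GFP and TdTomato are added features. A further allele shared by all mice is not reported here.

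Cells were assigned to no mouse or group. Cells with under 500 genes (2081) or over 20% mitochondrial UMIs (3373) were left out, and 12183 remained. Levels, ratios and intervals were computed from summed UMIs in Python 3.11.15 with numpy 2.4.6, scipy 1.17.1 and pandas 2.3.3, and the code was tested on simulated counts. For shares, cells were thinned without replacement to 5000 UMIs (seed 42). Doublets were not called, and an alternative left out the 6% of kept cells with the most UMIs. Myeloid-, endothelial- and fibroblast-marker cells had Sftpc under 500 and at least 20, 10 and 30 UMIs per 10000 of their markers.

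The members and lists were chosen with earlier results of these data known. The text names the 4 members and list genes at 10 CPM or more or past 2-fold, though not every such list gene. It also names the 3 genes most correlated with each member among genes detected in at least 10% of thinned cells. Other names are marked as chosen after their values were seen. Sequences were aligned with Biopython 1.88, and all 4 members matched RefSeq promoters.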

Additional observations from a re-analysis of the deposited data

How the results depend on the processing

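Shares of cells with all 4 members depended on depth: 0.619% after thinning to 5000 UMIs, 0.106% at 2000, 1.39% at 10000 and 4.19% without thinning, while the other 7 alternatives stayed inside the main interval. All 4 members remained lower in Hopx-high and in keratin-high cells under each of 14 alternatives. Of the 4, 3 or 4 were higher in Stk11-positive cells under 12 alternatives, the exception being Lyz1, whose log2 ratio of 0.12 became -0.22 with Sftpc of at least 1000 per 10000 and -0.12 with at least 2 UMIs of Stk11 or GFP. Without the Lyz1-rich cells it was 0.31, and without the 10 cells of each class with the most Lyz1 1.42, alternatives that were chosen after seeing the data, as were those on club UMIs, on single cells rich in Chia1 or Cbr2 and on Lyz1 in Chia1-rich cells. The Lyz1 log2 ratio in Hopx-high cells was -3.15 without the Lyz1-rich cells, against -7.09 with them, and -2.04 against -5.97 in keratin-high cells. Over all alternatives the Stk11-positive to GFP-positive log2 ratio ran from 0.66 to 1.09 for Lyz2, 1.13 to 1.47 for Chia1 and 1.29 to 1.53 for Cbr2. In Hopx-high cells it ran from -6.30 to -3.95, -3.99 to -2.16 and -2.82 to -1.59, and in keratin-high cells from -7.34 to -3.48, -2.38 to -1.21 and -4.51 to -2.60. For Lyz1 it ran from -7.72 to -3.15 in Hopx-high and from -7.28 to -1.76 in keratin-high cells. The lowest Lyz2 values came from leaving out cells with Sftpc of 500 or more per 10000. No paired analysis was possible because the matrix does not give the mouse of a cell. At 5000 UMIs, 1 UMI is worth 2 per 10000, so detection of Chia1 and Cbr2 in single cells is limited by depth.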
